A study of Mus musculus with 10 samples.

Results

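Small leucine rich proteoglycans are secreted proteins with a core of leucine rich repeats, most of which carry glycosaminoglycan chains. They bind collagen fibrils and help to set their diameter and spacing, and several also hold growth factors such as TGF-beta in the matrix. Fibroblasts are a main source of them, together with Mgp (matrix Gla protein), a vitamin K dependent protein that keeps soft tissue from calcifying, and with Sparc and Postn, secreted matricellular proteins that bind collagen. The genes described here were taken by name and are the proteoglycans Dcn, Bgn, Aspn, Lum, Fmod, Prelp and Ogn, the matricellular genes Sparc and Postn, and Mgp. These are 10 of the 48476 genes of the series table, and they were picked by name with earlier results of these data known, not blind to their values.

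They were followed by bulk RNA-seq in mouse embryonic fibroblasts (MEFs, CBA/CaJ X C57BL/6J, from embryos of embryonic day 13.5). The methods describe MEFs with an Oct4-GFP reporter that were cultured in medium with serum and infected with retroviruses. They were then induced in iCD1 medium, a serum-free reprogramming medium. Whether the day 0 libraries were taken before this change of medium is not stated, so medium and time may not be separable there. Both arms received the reprogramming factors Oct4, Klf4 and Sox2 (OKS). The arm called OKS + FoxO6 also received FoxO6, a forkhead transcription factor, and the arm called OKS + DsRed received the red fluorescent protein DsRed, which the labels shorten to DR, as the control. Days 0, 1, 3, 5 and 7 were sampled with 1 library per arm, so a difference on a single day had no replicate check, and the days of an arm may share 1 infected culture. The libraries held between 1208379 and 2225750 expected counts. Foxo6 had a TPM (the share of transcripts after correction for their length) between 762 and 1356 in the libraries of its own arm, day 0 included, and at most 2.29 in OKS + DsRed. The MEF label was checked against 11 fibroblast markers, whose summed TPM was 10654 and 10051 at day 0 in OKS + DsRed and OKS + FoxO6, and 3172 and 3343 at day 7.

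Of the 9 genes with enough reads to test, 7 were lower at day 7 than at day 0 (10.2% of all genes tested were), and Bgn fell furthest. Between the arms, Dcn, Postn and Mgp were higher in OKS + FoxO6 over the 5 days (6.69% of all genes tested), whereas Sparc and Prelp were lower there (6.92%). The calls of Prelp and Postn were lost under several alternatives, that of Prelp also when any 1 of days 1, 3, 5 and 7 was left out. The difference of Dcn between the arms changed along the course in the reported fit, a call that several alternatives lost.

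**Figure D1:**
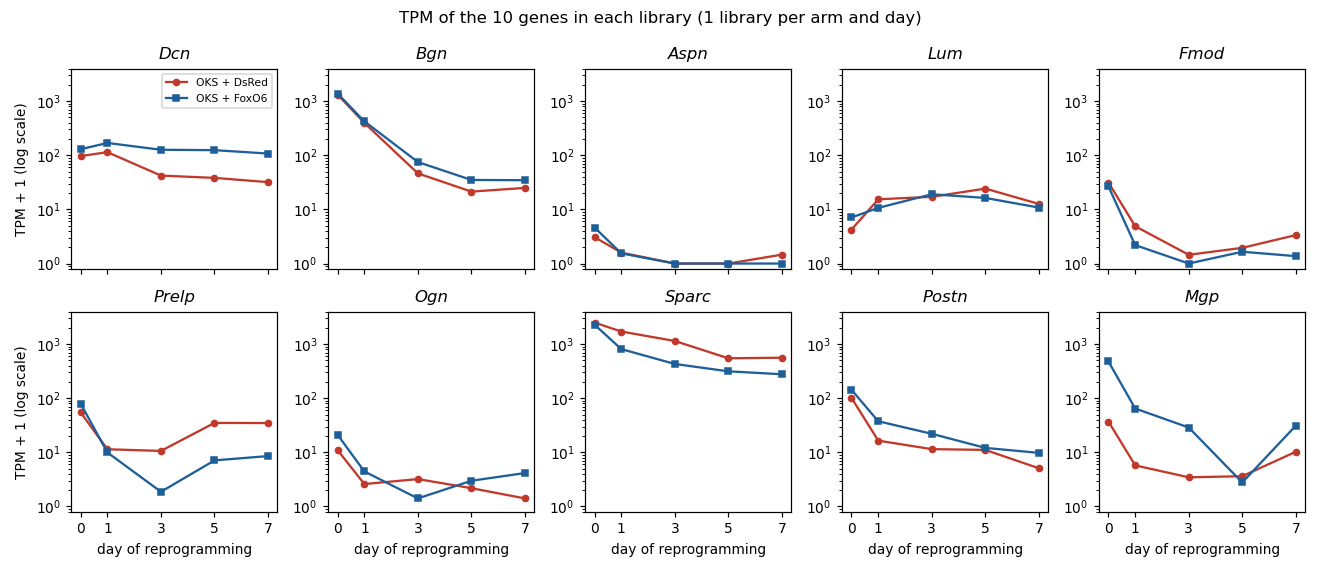
TPM + 1 on a log axis against the day of reprogramming for each of the 10 genes, with OKS + DsRed as red circles and OKS + FoxO6 as blue squares, 1 library per point and no error bars. The lines of Dcn separate from day 3 on, while those of Bgn fall together, from 1319 and 1378 at day 0 to 24.0 and 33.6 at day 7.

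Of the 7 proteoglycan genes, 6 lie near other genes of the family, and Bgn lies apart. On GRCm38 (GENCODE M21 coordinates), Dcn lies on chromosome 10 from 97479609 to 97518143 and Lum from 97565128 to 97572703, both on the plus strand and 47.0 kb apart, followed by the family members Kera and Epyc. Prelp (chromosome 1, 133910304 to 133921414, minus strand) and Fmod (134037254 to 134048277, plus strand) are 115.8 kb apart. Aspn (chromosome 13, 49544443 to 49567565, plus strand) and Ogn (49608046 to 49624501, plus strand) flank Omd, another member of the family. Both lie within Cenpp on the opposite strand, which had 1 to 12 reads a library. Prelp overlaps the antisense gene Gm15851, with at most 1.68 reads. Bgn is on chromosome X (73483602 to 73495933, plus strand), Sparc on chromosome 11 (55394500 to 55423183, minus strand), Postn on chromosome 3 (54361109 to 54391037, plus strand) and Mgp on chromosome 6 (136872435 to 136875823, minus strand). All 10 are protein-coding genes.

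The promoters of 3 genes are shown because Bgn, Sparc and Postn passed the test between day 7 and day 0 and had the most reads among the 7 genes with an entry in the RefSeq promoter table (GRCm38.p6). Each run is the 120 bases upstream of the RefSeq start site, 5′ to 3′ on the strand of the gene, with a matched motif in capitals. They are chrX:73483481-73483600 on the plus strand for Bgn, chr11:55420081-55420200 on the minus strand for Sparc and chr3:54360987-54361106 on the plus strand for Postn. The RefSeq start site of Sparc used here, 55420080, lies inside the GENCODE span of the gene, which begins upstream at 55423183.
Bgn: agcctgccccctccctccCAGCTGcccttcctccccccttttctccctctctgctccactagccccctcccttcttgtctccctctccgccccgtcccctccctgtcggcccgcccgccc
Sparc: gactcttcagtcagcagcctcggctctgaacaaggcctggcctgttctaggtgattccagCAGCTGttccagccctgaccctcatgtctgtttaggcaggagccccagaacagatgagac
Postn: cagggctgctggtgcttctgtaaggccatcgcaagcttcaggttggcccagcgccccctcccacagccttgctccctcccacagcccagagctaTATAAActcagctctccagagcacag
In Bgn the capitals mark CAGCTG, a form of the E-box, from base -102 to -97 before the start site, and in Sparc the same letters from -60 to -55. In Postn they mark TATAAA, a form of the TATA box, from -26 to -21. A set of 6 motifs was searched on both strands from 250 bases before to 50 after each start site, of which 8 belonged to the genes described here because Postn has 2. TATAAA was in 3 of the 8 (Postn, Aspn and Ogn), against 13.62% of 32851 promoters, and CAGCTG in 3 (Bgn, Sparc and Ogn), against 16.3%. The TATAAA matches of Aspn lay between -207 and -173 and those of Ogn between -229 and -222, further upstream than that of Postn. The Klf element GGGNGTGG was in 1 (Prelp), against 17.62%. The AP-1 element TGANTCA (7.81%), the forkhead element TGTTTAC (3.65%) and the octamer ATGCAAAT (1.74%) were in none of the 8. These matches describe letters in a window and do not show binding.

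Dcn encodes decorin, a proteoglycan with a single glycosaminoglycan chain that coats collagen fibrils and binds TGF-beta. In OKS + DsRed its TPM ran 95.8, 113, 41.2, 37.2 and 30.9 over days 0, 1, 3, 5 and 7. On the same days the OKS + FoxO6 libraries gave 128, 168, 125, 123 and 107. Decorin mRNA was higher in OKS + FoxO6 on each of the 5 days, with the arms closest at day 0, and from day 3 on the 2 courses no longer came near each other. Relative to library size, the read ratio of OKS + FoxO6 over OKS + DsRed was 1.23 at day 0 (95% exact binomial interval 0.972 to 1.56). At day 3 it was 3.02 (2.21 to 4.19), and at day 7 it was 3.80 (2.76 to 5.32). These intervals, and those given for other genes, cover counting error only. The shift fitted over the 5 days, with day as a factor, was a log2 fold change of 1.16 ± 0.23 (SE), which is 2.23-fold higher in OKS + FoxO6 (edgeR quasi-likelihood test, Benjamini-Hochberg adjusted p = 0.00836). The difference between the arms also changed with the day, by 0.24 ± 0.05 (SE) on the log2 scale per day (edgeR quasi-likelihood interaction, Benjamini-Hochberg adjusted p = 0.0288). That call was lost without day 0 (adjusted p = 0.137), day 1 (0.0745) or day 7 (0.0712) in edgeR, and with DESeq2 (0.0608) and limma on log2(TPM + 1) (0.161). By day 7, 32.3% of the day 0 TPM was left in OKS + DsRed and 83.1% in OKS + FoxO6. The fall common to both arms did not pass the test (log2 fold change -0.86 ± 0.36 (SE), edgeR quasi-likelihood adjusted p = 0.121).

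Bgn encodes biglycan, the closest relative of decorin, which carries up to a pair of chains and binds collagen, TGF-beta and Toll-like receptors. Over days 0, 1, 3, 5 and 7 its TPM ran 1319, 395, 45.2, 20.3 and 24.0 in OKS + DsRed and 1378, 422, 74.0, 34.0 and 33.6 in OKS + FoxO6. The fall was steep between day 0 and day 5 in both arms, and the 2 day 7 libraries held 1.82% and 2.44% of the day 0 level. Between day 0 and day 7 the log2 fold change over both arms was -5.49 ± 0.26 (SE), a 45.1-fold fall (edgeR quasi-likelihood test, Benjamini-Hochberg adjusted p = 1.36e-06). The TPM was higher in OKS + FoxO6 on all 5 days, but the shift of 0.38 ± 0.15 (SE) on the log2 scale did not pass the test (edgeR quasi-likelihood adjusted p = 0.112). The read ratio between the arms was 0.978 at day 0 (exact interval 0.924 to 1.03) and 1.55 at day 7 (1.07 to 2.24).

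The order of decorin and biglycan changed along the course. On the TPM scale, Bgn was 13.8 times Dcn at day 0 in OKS + DsRed and 10.7 times Dcn in OKS + FoxO6. In OKS + FoxO6 the ratio of Dcn to Bgn was 1.70 at day 3 (exact interval of counting error 1.38 to 2.09), 3.63 at day 5 (2.79 to 4.75) and 3.17 at day 7 (2.39 to 4.25). In OKS + DsRed it was 0.91 at day 3 (0.626 to 1.31), 1.83 at day 5 (1.14 to 2.98) and 1.29 at day 7 (0.863 to 1.92), so that in this arm Dcn was above Bgn beyond counting error at day 5 and the order at day 7 was not resolved. Each of these ratios came from 1 library, and the day of the turn was not tested between the arms.

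Aspn (asporin), the remaining class I gene described here, which binds collagen without carrying the usual chain, was close to the limit of detection. It had 3 reads at day 0 in OKS + DsRed (TPM 2.07) and 9 in OKS + FoxO6 (TPM 3.63), and no more than 1 read in any later library. At this depth no difference between the arms was detectable, and Aspn was the only one of the 10 genes that did not pass the filter on low counts, so it entered no test.

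Lum, Fmod and Prelp are the class II genes among those described here. Lum encodes lumican, a keratan sulfate proteoglycan known for its part in corneal transparency. Over the 5 days its TPM ran 3.24, 14.4, 16.1, 23.2 and 11.6 in OKS + DsRed and 6.09, 9.68, 18.1, 15.3 and 9.82 in OKS + FoxO6. Unlike the other genes, it was lowest at day 0 in both arms, with 5 and 16 reads there and 19 to 42 later. Neither the change from day 0 to day 7 (log2 fold change 1.13 ± 0.44 (SE), edgeR quasi-likelihood adjusted p = 0.0895) nor any change between days (adjusted p = 0.0552) passed the test. Nor did the shift between the arms (log2 fold change -0.17 ± 0.25 (SE), adjusted p = 0.716).

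Fmod encodes fibromodulin, which regulates collagen cross-linking and fibril growth. The 5 libraries of OKS + DsRed, in order of day, had TPM values of 30.4, 3.89, 0.45, 0.95 and 2.35, and those of OKS + FoxO6 had 25.5, 1.19, 0, 0.65 and 0.37. Most of it was gone by day 1 in both arms, and the later values rest on at most 9 reads a library. The log2 fold change from day 0 to day 7 was -4.44 ± 0.57 (SE), with a Benjamini-Hochberg adjusted p = 0.000272 in edgeR's quasi-likelihood test. OKS + FoxO6 had the lower TPM on all 5 days, yet the shift of -0.95 ± 0.43 (SE) did not pass the test (edgeR adjusted p = 0.178), and 6 of the 10 libraries had at most 3 reads. Without day 0 the shift was -1.69 and did not pass either (edgeR adjusted p = 0.201).

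Prelp encodes a proline and arginine rich member of the family that binds collagen, heparan sulfate and basement membrane. In order of day, its TPM in OKS + DsRed ran 53.7, 10.4, 9.64, 34.0 and 33.8. In OKS + FoxO6 it ran 78.5, 8.96, 0.87, 6.11 and 7.54. Both arms had a low TPM at day 1, where the effective length of Prelp was 2034 nucleotides in OKS + FoxO6 and 3555 in OKS + DsRed and the read ratio of OKS + FoxO6 over OKS + DsRed was 0.487 (exact interval 0.242 to 0.944). At days 5 and 7 the TPM was 63.3% and 63.0% of day 0 in OKS + DsRed, while from day 3 on it was at most 9.61% of day 0 in OKS + FoxO6. In OKS + FoxO6 the effective length was 3013 nucleotides at day 0 and 3552 to 3554 from day 3 on, and in reads relative to library size day 7 was 12.7% of day 0 (exact interval 7.97% to 19.3%). In reads the day 5 value in OKS + DsRed was 37.7% of day 0 relative to library size (exact interval 27.0% to 52.2%). The effective length that RSEM assigned to Prelp, by which a TPM is divided, was 2406 nucleotides there against 3553 to 3555 in the other libraries of that arm. At day 3 OKS + FoxO6 had 3 reads and the read ratio was 0.089 (exact interval 0.017 to 0.291), and at day 7 it was 0.245 (0.151 to 0.383). The shift over the 5 days was -1.28 ± 0.37 (SE) on the log2 scale (edgeR quasi-likelihood test, Benjamini-Hochberg adjusted p = 0.0434), with OKS + FoxO6 lower on 4 of 5 days. It was larger without day 0, at -1.95 (adjusted p = 0.0026), the only day on which OKS + FoxO6 was higher. It no longer passed without day 1 (adjusted p = 0.0836), day 3 (0.108), day 5 (0.162) or day 7 (0.123), or with limma on log2(TPM + 1) (0.105). The fall from day 0 to day 7 in both arms, -1.93 ± 0.51 (SE), passed in edgeR (adjusted p = 0.0193) and not in limma (0.0873).

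Ogn, a class III gene that encodes osteoglycin (mimecan), had day 0, 1, 3, 5 and 7 levels of 9.99, 1.60, 2.21, 1.18 and 0.41 TPM in OKS + DsRed and 20.1, 3.44, 0.41, 1.99 and 3.15 TPM in OKS + FoxO6. It fell by day 1 in both arms, and every later library had at most 7 reads. The log2 fold change from day 0 to day 7 was -3.05 ± 0.79 (SE), which passed the test (edgeR quasi-likelihood adjusted p = 0.0172). The shift between the arms was 0.78 ± 0.57 (SE) and did not (adjusted p = 0.425).

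Sparc encodes osteonectin, a calcium and collagen binding protein that acts on collagen assembly. Day by day, Sparc stood at 2498, 1708, 1141, 546 and 560 TPM in OKS + DsRed and at 2285, 807, 429, 313 and 277 in OKS + FoxO6. Sparc had the highest TPM of the 10 genes in every library, and OKS + FoxO6 was lower on each of the 5 days. The arms were close at day 0, with a read ratio of OKS + FoxO6 over OKS + DsRed of 0.798 (exact interval 0.761 to 0.836), and apart from day 1 on, with 0.479 (0.446 to 0.514) at day 1, 0.393 (0.359 to 0.429) at day 3 and 0.591 (0.528 to 0.662) at day 7. The shift over the 5 days was -0.87 ± 0.14 (SE) on the log2 scale, 1.83-fold lower in OKS + FoxO6 (edgeR quasi-likelihood test, Benjamini-Hochberg adjusted p = 0.00258). From day 0 to day 7 the log2 fold change was -2.56 ± 0.23 (SE), with an edgeR adjusted p = 3.03e-05.

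Postn encodes periostin, which links collagen with fibronectin and tenascin and helps to activate lysyl oxidase. From day 0 to day 7 the 5 values of Postn were 100.5, 15.5, 10.5, 10.1 and 4.09 TPM in OKS + DsRed and 142, 36.6, 21.0, 11.1 and 8.79 in OKS + FoxO6. It was higher in OKS + FoxO6 on all 5 days while falling in both arms. At day 5 the TPM of the arms was nearly the same, but the reads were 11 and 35, a ratio of 2.09 relative to library size (exact interval 1.04 to 4.55). The effective length of Postn was 1589 nucleotides in OKS + DsRed at day 5, against 2898 to 3263 in the other libraries of that arm. In OKS + FoxO6 it was 2526 at day 1 and 2144 at day 3, against 2922 to 3110 on the other days. The read ratio was 1.87 at day 1 (exact interval 1.25 to 2.85) and 1.36 at day 3 (0.808 to 2.34), so that the day 3 difference lay within counting error. The shift was 0.70 ± 0.17 (SE) on the log2 scale, 1.62-fold (edgeR quasi-likelihood test, Benjamini-Hochberg adjusted p = 0.0209). It was not past the threshold with DESeq2 (adjusted p = 0.0564), with limma on log2(TPM + 1) (0.0688), without day 1 (0.0739) or without day 5 (0.0805). The log2 fold change from day 0 to day 7 was -4.19 ± 0.27 (SE), an 18.2-fold fall (edgeR adjusted p = 4.53e-06).

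Mgp, whose protein also binds bone morphogenetic proteins, had the largest shift between the arms of the 9 genes tested. Its 5 TPM values in OKS + DsRed were 36.2, 4.75, 2.46, 2.63 and 9.26, from 13, 2, 1, 1 and 5 reads. Those in OKS + FoxO6 were 476, 63.6, 27.8, 1.78 and 30.1, from 290, 29, 15, 1 and 15 reads. OKS + FoxO6 was higher on 4 of 5 days, day 0 included, and at day 5 both arms had a single read. The read ratio of OKS + FoxO6 over OKS + DsRed was 11.9 at day 0 (exact interval 6.84 to 22.6), 13.2 at day 1 (3.34 to 114) and 3.59 at day 7 (1.24 to 12.6). The shift over the 5 days was 3.06 ± 0.39 (SE) on the log2 scale, 8.33-fold (edgeR quasi-likelihood test, Benjamini-Hochberg adjusted p = 0.000634). It lay between 2.52 and 3.42, with adjusted p between 0.000191 and 0.0275, when any 1 day was left out. With limma on log2(TPM + 1) it was smaller, at 2.29 (adjusted p = 0.0281). Mgp also fell over the course, with a log2 fold change from day 0 to day 7 of -3.32 ± 0.48 (SE) (edgeR quasi-likelihood adjusted p = 0.000611).

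**Figure D2:**
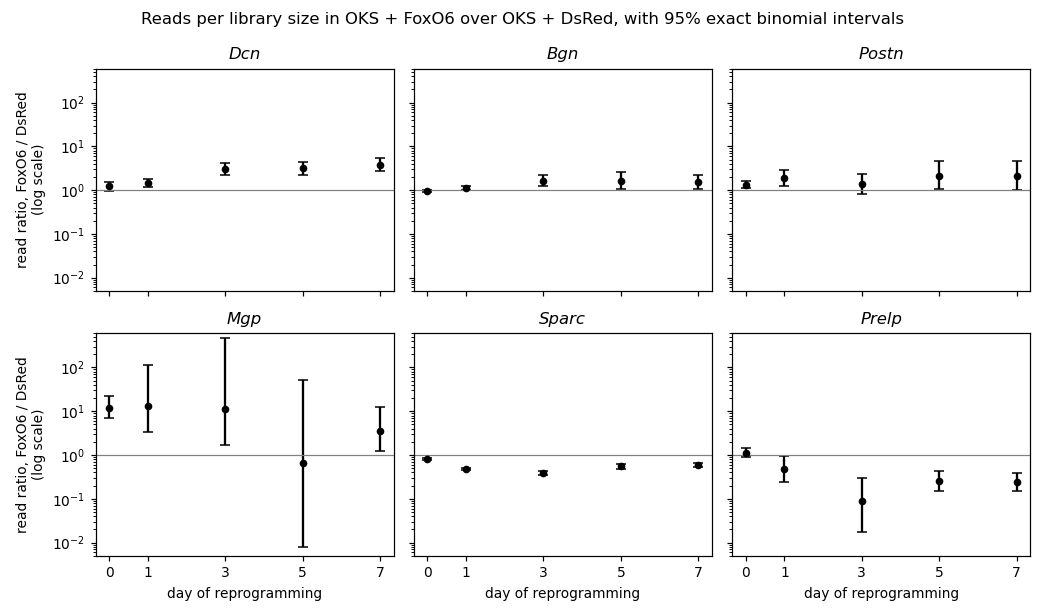
Read ratio of OKS + FoxO6 over OKS + DsRed relative to library size, on a log axis, against the day of reprogramming for 6 genes, with bars for the 95% exact binomial interval of counting error and a grey line at a ratio of 1. Dcn rises from 1.23 to 3.80, Sparc stays below 1 on each day, and the bars of Mgp are wide wherever an arm had few reads.

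Over the 9 genes tested, 3 were higher in OKS + FoxO6 (Dcn, Postn and Mgp), against a background of 6.69% of 12139 genes called in that direction. Sparc and Prelp were the 2 lower genes, against a background of 6.92%. The count of lower genes was 1 (Sparc) without day 1, 3, 5 or 7 and with limma, and the count of higher genes was 2, without Postn, with DESeq2, with limma and without day 1 or 5. The median shift was 0.38 on the log2 scale for the 9 genes and -0.02 for all genes tested. From day 0 to day 7, 7 of the 9 fell, against 10.2% of all genes called lower, and the median log2 fold change was -3.05 for the 9 genes and 0.03 for all. The same number, 7 of 9, passed the joint test for any change between days, against 20.2% of all genes. That count was 4 without the day 0 libraries (Sparc, Postn, Bgn and Prelp) and 8 without the day 7 libraries, when Lum was added. For a changing difference between the arms, Dcn passed the threshold in the reported fit, against 1.75% of all genes, and lost it with DESeq2, limma or without day 0, 1 or 7, as given above. The slope of Prelp, -0.32 on the log2 scale per day, was larger in size but did not pass (edgeR adjusted p = 0.0975), except without the filter on low counts (adjusted p = 0.000851). Without day 0 the slope of Prelp was -0.098 (edgeR adjusted p = 0.784), smaller in size than that of Dcn, 0.22. The days and the arms share libraries in these fits, and p-values measure the spread between these 10 libraries rather than between independent infections. In bulk samples, fewer cells that make a transcript and less of it per cell cannot be told apart.

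**Figure D3:**
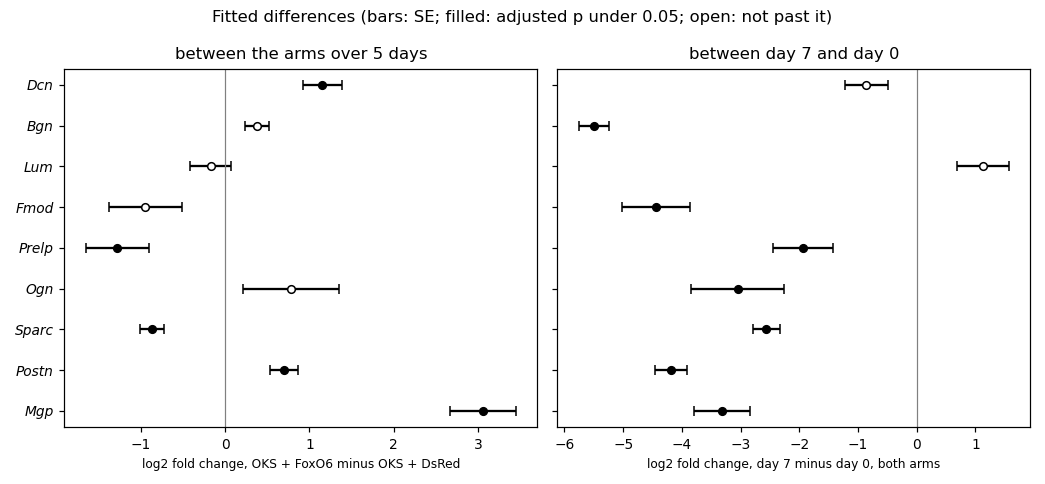
Fitted log2 fold changes of the 9 genes tested, OKS + FoxO6 minus OKS + DsRed over 5 days on the left and day 7 minus day 0 over both arms on the right, as points with SE bars from edgeR. Filled points passed an adjusted p of 0.05, and on the left they lie on both sides of 0 while on the right all 7 lie below it.

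On single days, with no test, the number of the 10 genes past a 2-fold difference in log2(TPM + 1) between the arms was 1 at day 0 (Mgp), against 17.8% of the 20023 genes that reached 1 TPM in some library. It was 4 at day 1 (Fmod, Sparc, Postn and Mgp), against 18.6%. At day 3 it was 5 (Dcn, Prelp, Ogn, Sparc and Mgp), against 20.9%. At day 5 it was 2 (Dcn and Prelp), against 22.9%, a share near the background. At day 7 it was 6 (Dcn, Fmod, Prelp, Ogn, Sparc and Mgp), against 25.4%, with 3 of them higher and 3 lower in OKS + FoxO6. Several of these rest on few reads. The interval of the read ratio included 1 for Fmod at day 1, from 9 and 3 reads (0.053 to 1.22), for Ogn at day 3, from 4 and 1 reads (0.004 to 1.87), and for Fmod at day 7, from 7 and 1 reads (0.004 to 1.33). Ogn at day 7 had 1 and 7 reads (1.08 to 378). On CPM with a prior count of 2, Postn was not past 2-fold at day 1 (3 genes) and Sparc was not at day 7 (5 genes). Within each arm, 8 of the 10 genes were past 2-fold lower at day 7 than at day 0, against 11.0% of genes for OKS + DsRed and 15.8% for OKS + FoxO6. The 8 include Aspn in both arms, whose fall in OKS + DsRed from 3 reads to 1 was not resolved (0.389% to 254% of day 0, exact interval). The exceptions were Lum in both arms, Prelp in OKS + DsRed and Dcn in OKS + FoxO6. The median difference from day 0 in log2(TPM + 1) over the 10 genes was -2.01 for OKS + DsRed and -3.13 for OKS + FoxO6, and 0 over all genes for both.

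The make-up of the group shifted with these changes. In OKS + DsRed the 10 genes summed to 4148 TPM on day 0 and to 677 TPM on day 7, and in OKS + FoxO6 the sums were 4544 and 477. In OKS + DsRed Sparc and Bgn together were 92.0% of that sum on day 0 and 86.3% on day 7, against 80.6% and 65.1% in OKS + FoxO6. In OKS + DsRed Dcn was 2.31% of the sum on day 0 and 4.57% on day 7, against 2.82% and 22.4% in OKS + FoxO6. Sparc was 18.1 times Dcn on the TPM scale in OKS + DsRed at day 7 and 2.59 times Dcn in OKS + FoxO6. Prelp was above Dcn and Bgn in OKS + DsRed at day 7, with a TPM of 33.8 against 30.9 and 24.0. In OKS + FoxO6 its TPM on that day was 7.54. Lum, Postn and Mgp had 5 to 27 reads each at day 7. The order of these genes was not tested.

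**Figure D4:**
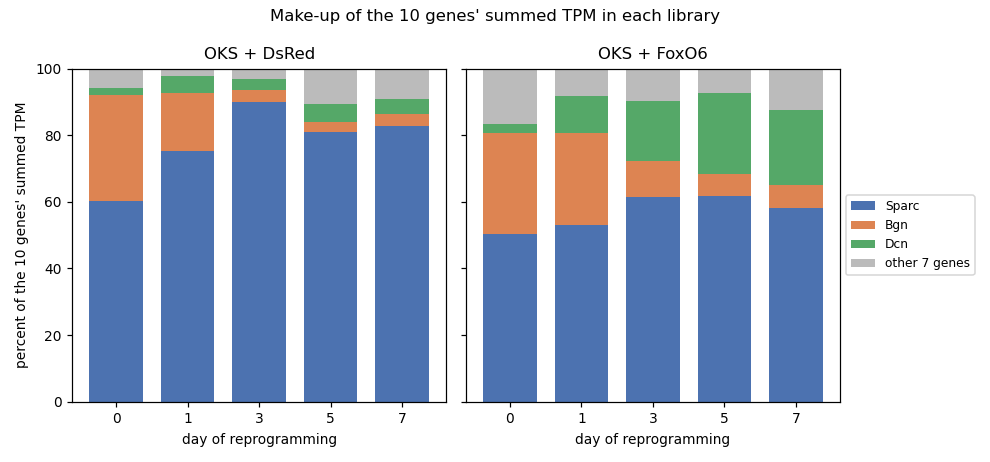
Percent of the 10 genes' summed TPM held by Sparc, Bgn, Dcn and the other 7 genes in each library, OKS + DsRed on the left and OKS + FoxO6 on the right, 1 library per bar and no error bars. The Bgn segment shrinks in both arms, and the Dcn segment reaches 24.3% in OKS + FoxO6 at day 5 against 5.51% in OKS + DsRed.

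Beyond these genes, Tsku was the family member with the most reads. Of 11 other small leucine rich proteoglycan genes measured, 7 reached a TPM of 1 in any library with Tsku among them, and Tsku was the one that entered the tests. Tsku encodes tsukushi, which binds several secreted signalling proteins. In order of day its TPM ran 48.8, 23.0, 51.5, 38.9 and 38.0 in OKS + DsRed and 50.1, 50.7, 86.7, 92.5 and 124 in OKS + FoxO6, a shift of 1.01 ± 0.20 (SE) on the log2 scale (edgeR quasi-likelihood adjusted p = 0.00854). Omd, between Aspn and Ogn, had 12 reads in OKS + FoxO6 at day 0 and at most 1 in any other library. Podn and Chadl had at most 11 and 7 reads. Kera, Epyc, Optc, Chad, Nyx, Podnl1 and Ecm2 had at most 4 reads in any library.

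For the gene lists that follow, the shares over all 12139 genes tested were 6.69% higher and 6.92% lower in OKS + FoxO6, and 11.8% rising and 10.2% falling from day 0 to day 7, with medians of -0.02 and 0.03 on the log2 scale. Among 32 tested genes that build and sulfate glycosaminoglycan chains, 1 was higher and 2 were lower in OKS + FoxO6, which is no more than the share over all genes, and the median shift was -0.06. From day 0 to day 7, 2 rose and 10 fell, with a median of -0.67. The higher gene was Chst15, a sulfotransferase that adds a further sulfate to chondroitin sulfate, with a log2 fold change of 1.94 ± 0.24 (SE) and an edgeR adjusted p = 0.000512. The lower genes were Chst3, a chondroitin 6-sulfotransferase (-2.45 ± 0.38 (SE), edgeR adjusted p = 0.00194), and Csgalnact1, which starts chondroitin chains (-1.85 ± 0.28 (SE), edgeR adjusted p = 0.00175). In OKS + DsRed Chst3 had a TPM of 0.52 on day 0 and 18.2 on day 7, and in OKS + FoxO6 the values were 0.61 and 2.45.

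Around Mgp, 14 tested genes of vitamin K dependent proteins and of the control of calcification split into 3 higher (6.69% over all genes) and 4 lower (6.92%) in OKS + FoxO6, with a median shift of -0.05. Pros1, the vitamin K dependent protein S, was higher on every day, with a shift of 2.26 ± 0.17 (SE) on the log2 scale (edgeR adjusted p = 5.55e-05). So was Ank, which exports a precursor of the calcification inhibitor pyrophosphate (1.32 ± 0.14 (SE), edgeR adjusted p = 0.000194). Enpp1, which makes extracellular pyrophosphate, was lower (-1.25 ± 0.26 (SE), edgeR adjusted p = 0.0105). Alpl, the phosphatase that removes pyrophosphate and that pluripotent cells also express, rose over the course, from 2.95 TPM on day 0 to 174 TPM on day 7 in OKS + DsRed, and in OKS + FoxO6 from 0 to 109 (edgeR adjusted p = 7.08e-06). Between the arms Alpl was lower in OKS + FoxO6 (-1.17 ± 0.27 (SE), edgeR adjusted p = 0.015).

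Of 17 tested matrix genes whose proteins these genes bind or help to assemble, 13 fell from day 0 to day 7 (10.2% over all genes), with a median of -1.96 on the log2 scale. Between the arms 1 was higher (6.69%) and 4 lower (6.92%) in OKS + FoxO6, with a median shift of -0.17. Lox, the lysyl oxidase that cross-links collagen, had a TPM of 349 and 533 at day 0 and 7.21 and 9.75 at day 7 in OKS + DsRed and OKS + FoxO6. Its shift of 0.81 ± 0.15 (SE) on the log2 scale (edgeR adjusted p = 0.00576) and that of Postn had the same sign, and the opposite sign was found for the collagen VI chains Col6a1 (-0.75 ± 0.16 (SE), edgeR adjusted p = 0.0112) and Col6a2 (-1.37 ± 0.22 (SE), edgeR adjusted p = 0.00284). Among 18 tested ligands and receptors of these proteins, 5 were higher in OKS + FoxO6 (6.69% over all genes), with a median shift of 0.16. Examples were the TGF-beta receptor Tgfbr2 (1.51 ± 0.15 (SE), edgeR adjusted p = 0.000167), Met (1.53 ± 0.22 (SE), edgeR adjusted p = 0.00122) and the Toll-like receptor Tlr4 (1.89 ± 0.46 (SE), edgeR adjusted p = 0.0214). Tlr4 had only 2 to 5 reads a library in OKS + DsRed. At day 7 its TPM was 2.16 in OKS + FoxO6, from 6 reads, and 3.45 in OKS + DsRed, from 5 reads. From day 0 to day 7, 1 of the 18 rose (11.8% over all genes) and 9 fell (10.2%), with a median of -1.10.

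Of 10 tested proteases and inhibitors that act on proteoglycans and their matrix, 4 were higher (6.69% over all genes) and 1 lower (6.92%) in OKS + FoxO6, with a median shift of 0.10. From day 0 to day 7, 7 of the 10 fell (10.2%), with a median of -2.09. The higher genes included Adamts5, an aggrecanase (2.10 ± 0.43 (SE), edgeR adjusted p = 0.00932), and Adamts1 (1.01 ± 0.29 (SE), edgeR adjusted p = 0.0422). The lower gene was Timp3, an inhibitor of such proteases, with a log2 fold change of -1.43 ± 0.13 (SE) and an edgeR adjusted p = 7.89e-05. Among 17 other tested matricellular genes, 3 were higher and 2 lower in OKS + FoxO6, with a median shift of -0.23, and 1 rose (11.8% over all genes) and 12 fell from day 0 to day 7, with a median of -1.98. Thbs1 (1.46 ± 0.28 (SE), edgeR adjusted p = 0.00648) and Ctgf (1.41 ± 0.24 (SE), edgeR adjusted p = 0.00339) were higher, whereas Spock2 was lower (-1.78 ± 0.30 (SE), edgeR adjusted p = 0.0036).

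Markers of cell types moved over the same days. A list of 7 smooth muscle and pericyte markers, which MEFs also express in part, had a summed TPM of 4558 on day 0 and 49.3 on day 7 in OKS + DsRed, with 5063 and 66.8 in OKS + FoxO6, and 6 of them fell by test, as did the 7 genes Bgn, Fmod, Prelp, Ogn, Sparc, Postn and Mgp. Between the arms 2 of the 7 markers were lower in OKS + FoxO6, Rgs5 (-2.32 ± 0.49 (SE), edgeR adjusted p = 0.0109) and Cspg4 (-1.19 ± 0.21 (SE), edgeR adjusted p = 0.00462). The median shift of the 7 markers was 0.16 on the log2 scale. All 11 fibroblast markers fell from day 0 to day 7, with Thy1 at -4.11 ± 0.30 (SE) on the log2 scale (edgeR adjusted p = 8.24e-06). Between the arms 2 of the 11 were higher and 2 lower in OKS + FoxO6. The 4 epithelial markers summed to a TPM between 11.2 and 608 in OKS + DsRed and between 3.14 and 132 in OKS + FoxO6, and the 4 pluripotent cell markers reached 246 and 33.1. All 3 epithelial markers tested (Cdh1, Krt8 and Epcam) and 1 of the 2 pluripotent cell markers tested (Nanog) were lower in OKS + FoxO6. The part of these cell states in the difference of Dcn, Sparc, Prelp, Postn and Mgp between the arms was not tested. The 6 cartilage markers summed to a TPM of 11.1 to 40.4 in OKS + DsRed and 20.8 to 70.9 in OKS + FoxO6, mostly from Col2a1, which was higher in OKS + FoxO6 (0.74 ± 0.15 (SE), edgeR adjusted p = 0.01). Comp and Matn1 were at 0 in all libraries except OKS + FoxO6 at day 0, where they had a TPM of 0.39 and 0.47. The 6 bone markers summed to at most 177 and 115, mostly from Alpl, with Runx2 up to 27.9 and Ibsp at 0 in every library. The 6 macrophage markers summed to at most 58.4 and 29.0, mostly from Cd68, while Ptprc, Csf1r and Adgre1 had a TPM of at most 0.6.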

How the data were processed

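The 10 libraries, 1 per arm and day, were grouped by their titles. Per the labels and methods, the authors mapped the reads with RSEM and Bowtie2 (versions not given in the sources used here) to GENCODE M13 on mm10. The deposited expected counts are unnormalized RSEM estimates, and the authors also deposited TPM from the same RSEM runs. The methods name a TruSeq kit and the labels a VAHTS kit, and strand use is not given. The series table holds the expected counts of 48476 genes. The library files hold 50600, with the same counts where shared, and the 2124 others hold at most 0.3123% of a library.

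Depth was 1208379 to 2225750 expected counts, so genes of low TPM rest on few reads. Expected counts were rounded and fitted with edgeR 4.0.16 in R 4.3.3 (TMM, filterByExpr, quasi-likelihood, Benjamini-Hochberg over 12139 genes, threshold 0.05). The fits were day plus arm (4 residual degrees of freedom) and arm by day as a number (3). Single days and courses used log2(TPM + 1), a pseudocount of 1, with no test. This scale understates changes of low genes. Read ratios have 95% exact binomial intervals on TMM-scaled library sizes. Python 3.11.15, pandas 2.3.3 and scipy 1.17.1 were used. The shift was tested on simulated counts of 12139 genes, where 199 of 200 genes changed 4-fold were recovered with 2 false calls. For day 7 against day 0 these were 186 and 7, and for the interaction 98 and 2. The simulated counts were independent between libraries and had the same spread relative to the mean for every gene. Genes not changed on purpose had no course over the days. The simulation therefore checks the fitting steps and not the calls made in these libraries.

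The 10 genes and all gene lists were chosen with earlier results of these data known. The text names the 10 genes, the other family members, and from each list up to 3 genes with the largest changes past the threshold in each comparison. It also names some cell type markers that made up most of a summed TPM or were at or near 0. For each of the 10 with a mean TPM of at least 5, it names the most alike genes among 7574 with a mean TPM of at least 20. The alternatives were RLE size factors, no filter, a mean TPM of at least 5, DESeq2 1.42.0, limma 3.58.1 on log2(TPM + 1), a length offset, no day term, the rank of the day, each day left out, a pseudocount of 0.1 and CPM with a prior count of 2. Promoters came from RefSeq (7 of 10 genes matched) and protein sequences were not used here.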

Additional observations from a re-analysis of the deposited data

Results flagged for a closer look

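The difference of Dcn between OKS + FoxO6 and OKS + DsRed changed with the day in the reported fit. It widened by 0.2441 on the log2 scale per day in the test of the arm by day interaction (edgeR quasi-likelihood adjusted p = 0.0288), with reads in OKS + FoxO6 above those in OKS + DsRed relative to library size on 5 of 5 days. The call was lost with DESeq2 (adjusted p = 0.0608), with limma (0.161) and without day 0 (0.137), day 1 (0.0745) or day 7 (0.0712). With 1 library per arm and day no group was large enough to look for a library that stands apart from its replicates.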

How the results depend on the processing

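Of the tested values of the 9 genes, those for day 7 against day 0 changed least, with 78 of 80 on the same side of the threshold and 1 weaker (Prelp, in limma). The exception in the other direction was Dcn, which passed without the filter on low counts (adjusted p = 0.00763), as did the shift of Bgn (adjusted p = 0.0426). For the shift, the count of genes higher in OKS + FoxO6 was 0 with no day term and 2 to 3 with a day left out, and the count of lower genes was 1 with limma, 0 with no day term and 1 to 2 with a day left out. For any change between days the count of 7 was 4 to 8 with a day left out. For the interaction the count of 1 became 2 without the filter, 0 with DESeq2, 0 with limma and 0 to 1 with a day left out. At day 0, 2 genes (Ogn and Mgp) were past 2-fold with a pseudocount of 0.1. Interaction values that turned sign, none past the threshold, were those of Postn with limma (-0.0179), with a day left out of Lum (-0.1412 to 0.0236), Sparc (-0.0931 to 0.0712) and Ogn (-0.2177 to 0.308). Over all genes, 1652 were called for the shift, but 929 with limma, 161 with no day term, 782 without day 3 and 713 without day 5. Any change between days was called for 2451 of 12139 genes, for 3816 of 22663 without the filter and for 1130 of 12139 without day 0. The interaction was called for 212 of 12139 genes and for 628 of 22663 without the filter. It was called for 26 with limma, and for 96 to 292 with a day left out. The share past 2-fold at day 0 was 11.8% on CPM, and with a mean TPM of at least 5 it was 11.7% at day 1 and 13.9% at day 3. The reported shift already pairs the arms by day, with day as a factor, and the fit with no day term is the unpaired one. Depth limits Aspn, Fmod, Ogn and Mgp, with at most 3 reads in 9, 6, 4 and 4 of 10 libraries. The causes were not tested.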

Other observations

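The genes whose log2(TPM + 1) over the 10 libraries was most like that of a gene described here are given as a description, since points share a library, a depth and the days of an arm. Bgn was most like Htra1, a secreted serine protease (Pearson r = 0.99). Postn was most like Dstn, an actin-severing protein (r = 0.99), and Lox (r = 0.978). Fmod was most like Csrp1 (r = 0.98) and Sparc most like Flna, which cross-links actin (r = 0.977). For Dcn it was Rgl1 (r = 0.958), for Lum Lsm14a (r = 0.961) and for Prelp Cotl1 (r = 0.96). Mgp had the least alike partner, Serf2 (r = 0.912). Among the 10 genes themselves, Bgn and Postn were the most alike of those with at least 11 reads in every library (r = 0.913). Within that limit, which leaves Dcn, Bgn, Sparc and Postn, the least alike were Dcn and Sparc (r = 0.086). Outside it, Lum had a negative r with each of the others, from -0.825 (Fmod) to -0.345 (Dcn).

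Among 11 tested transcription regulators of matrix genes, 2 were higher (6.69% over all genes tested) and 1 lower (6.92%) in OKS + FoxO6, and 5 fell from day 0 to day 7 (10.2%). The higher genes were Mkx, a regulator of tendon collagen, with a shift of 1.59 ± 0.47 (SE) on the log2 scale (edgeR quasi-likelihood adjusted p = 0.045) and Twist1 (1.00 ± 0.16 (SE), edgeR adjusted p = 0.00223). The lower gene was Prrx1 (-0.78 ± 0.12 (SE), edgeR adjusted p = 0.00243). Mkx was the 1 tested gene of 4 tendon markers, whose summed TPM was 3.75 to 7.33 in OKS + DsRed and 10.5 to 18.8 in OKS + FoxO6. The 6 bone markers, Alpl included, had a summed TPM of 22.0 on day 0 and 177 on day 7 in OKS + DsRed, with 19.7 and 115 in OKS + FoxO6. The 5 endothelial markers reached at most 55.3 and 104.0, mostly from Tek, and the 4 fat markers at most 12.7 and 14.6.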
